A study of Mus musculus with 15 samples.

Results

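The secondary (specific) and tertiary (gelatinase) granule genes of the neutrophil were followed across the spleen tumours of mice with acute promyelocytic leukaemia, a leukaemia of cells held at the promyelocyte step of neutrophil development. The set held 10 genes chosen by name: Ltf, Camp, Ngp, Lcn2, Cd177, Mmp8, Mmp9, Chil3 (annotated on the array under its older symbol Chi3l3), S100a8 and S100a9. Every array probeset whose only annotated symbol was one of these names was used, which gave 102 of 208397 probesets with a single symbol and 10 of 16296 named genes. A gene's value is the median log2 intensity over its probesets. The series consisted of 15 Affymetrix Mouse Exon 1.0 ST arrays, 1 for each of 15 tumours, and all came from leukaemic spleens of Bl/6 Taconic mice. The labels form 1 group: the oncogene that drove the leukaemia, the age of the mice and any treatment are not given in the sources used here, and no array of healthy spleen was analysed here. The tumours carry only numbers, 10 with 4 digits (such as tumor_9508) and 5 with 2 digits (such as tumor_31). Nothing in the labels states that each tumour is from a mouse of its own. A p-value here therefore weighs only the spread among 15 arrays, some of which may be technical.

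Neutrophils make their granules in a fixed sequence as they mature. Primary granules are filled at the promyelocyte stage, secondary granules at the myelocyte and metamyelocyte stages, and tertiary granules in band cells, so the mRNA of each granule protein marks a window of maturation. The transcription factor C/EBP epsilon, the product of Cebpe, is required for secondary granule gene expression in mouse and human neutrophils. Of the genes described here, Ltf codes for lactoferrin, an iron-binding protein, Camp for the precursor of the antimicrobial peptide cathelicidin, Ngp for a cathelin-related neutrophil granule protein of the mouse, and Lcn2 for lipocalin 2, which binds bacterial siderophores. Cd177 codes for a surface protein anchored by a glycolipid and stored in secondary granules. Mmp8 is the neutrophil collagenase and Mmp9 is gelatinase B, the enzyme for which tertiary granules were named. Chil3 codes for a chitinase-like lectin that is also made by macrophages. S100a8 and S100a9 code for the partner subunits of calprotectin, an abundant calcium-binding complex of the cytosol, and are therefore not granule proteins in the strict sense.

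The arrays had median intensities between 108 and 129 on the linear scale, and no pair of arrays held the same values. The correlation between arrays over the values of all 16296 named genes ran from 0.928 to 0.978. A pair of arrays, tumor_9509 and tumor_9514, had a correlation of 0.964 between them, while neither exceeded 0.949 with the rest. Some results are also given without this pair. Genes with a mean above 6.41 on the log2 scale, the 40th percentile of named genes, were called detected, and these were 9777. All 10 granule genes were among them. As a check of the tissue, the neutrophil lineage markers Mpo, Ctsg and Csf3r, which are not members, were detected. So were all 6 measured monocyte markers, 4 of 5 measured T cell markers (not Cd4) and 3 of 5 measured B cell markers (not Ms4a1 or Cd22). Detection also held for 3 of 4 measured eosinophil markers, 3 of 4 erythroid, 3 of 5 basophil and mast cell, 3 of 6 red pulp macrophage and 1 of 4 NK cell markers. These are bulk samples, in which fewer cells of a type and less RNA per cell cannot be told apart.

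The 300-base windows around the transcription starts are shown for Ltf and the 3 chromosome 9 genes called with it across the tumours, Camp, Ngp and Mmp8, and for Chil3, which was not called with Ltf. The sequences are RefSeq's, on assembly GRCm38.p6, from 250 bases before the start to 50 after it, written 5′ to 3′ on the strand of the gene. Capitals mark matches to TTGCNNAA on either strand, a pattern of C/EBP binding sites. The Ltf window is chr9:111019042-111019341 on the plus strand, Camp chr9:109849407-109849706 on the minus strand, Ngp chr9:110419558-110419857 on the plus strand, Mmp8 chr9:7558179-7558478 on the plus strand and Chil3 chr3:106167515-106167814 on the minus strand.
Ltf: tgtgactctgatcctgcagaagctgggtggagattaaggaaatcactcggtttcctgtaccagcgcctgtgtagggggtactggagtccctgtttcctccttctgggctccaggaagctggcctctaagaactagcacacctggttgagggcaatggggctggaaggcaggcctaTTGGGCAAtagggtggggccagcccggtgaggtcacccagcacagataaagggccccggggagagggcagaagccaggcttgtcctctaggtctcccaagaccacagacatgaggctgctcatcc
Camp: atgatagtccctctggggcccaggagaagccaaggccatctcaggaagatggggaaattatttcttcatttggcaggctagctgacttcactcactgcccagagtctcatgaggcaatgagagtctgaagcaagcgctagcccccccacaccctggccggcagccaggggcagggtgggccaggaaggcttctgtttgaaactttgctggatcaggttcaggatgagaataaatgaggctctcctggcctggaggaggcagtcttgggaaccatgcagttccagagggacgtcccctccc
Ngp: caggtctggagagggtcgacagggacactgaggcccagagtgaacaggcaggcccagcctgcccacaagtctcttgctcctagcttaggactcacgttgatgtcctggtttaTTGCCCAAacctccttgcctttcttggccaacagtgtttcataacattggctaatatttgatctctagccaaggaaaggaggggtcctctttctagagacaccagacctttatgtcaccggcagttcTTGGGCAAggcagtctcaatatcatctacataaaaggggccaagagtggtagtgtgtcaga
Mmp8: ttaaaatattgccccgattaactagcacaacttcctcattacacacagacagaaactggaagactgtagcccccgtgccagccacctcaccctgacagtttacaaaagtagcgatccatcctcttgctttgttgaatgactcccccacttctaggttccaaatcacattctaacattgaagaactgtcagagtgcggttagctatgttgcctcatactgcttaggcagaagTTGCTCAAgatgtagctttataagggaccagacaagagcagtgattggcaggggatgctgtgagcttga
Chil3: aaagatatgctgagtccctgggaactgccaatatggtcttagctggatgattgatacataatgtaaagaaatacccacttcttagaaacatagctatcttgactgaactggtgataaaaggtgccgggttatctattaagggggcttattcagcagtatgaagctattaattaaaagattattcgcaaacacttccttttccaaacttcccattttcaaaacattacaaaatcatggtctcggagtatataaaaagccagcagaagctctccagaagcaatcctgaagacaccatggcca

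The pattern TTGCNNAA was found in the windows of 5 of the 9 members that the sequence table holds (Mmp9 was not matched), against 10.8% of all 32851 windows. Ltf had a match that began 75 bases before its start, Ngp had matches at 138 and 11 bases before, and Mmp8 had a match at 19 bases before. Lcn2 and S100a9 held it too, at 216 and 236 bases before the start. The windows of Camp, Cd177, Chil3 and S100a8 did not contain these letters. The core AGGAAG of ETS factors such as PU.1, searched on both strands, was found in 6 of 9 member windows against 35.4% of all windows. TATAAA on the strand of the gene was found in 4 of 9 (Cd177, Chil3, S100a8 and S100a9) against 8.32% of all windows. A match is a description of the letters and was not tested as a binding site.

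Lactoferrin differed widely between tumours. Ltf, read by 21 probesets, was 7.67 in tumor_9508, the lowest, had a median of 10.64 and reached 12.24 in tumor_31, a 23.8-fold range (mean 10.44 ± 1.25, SD, n = 15). Tumor_9508 and tumor_9504 (8.36) lay well below the other 13 tumours, of which tumor_9495 was the lowest at 9.71. The SD of Ltf was above that of 99.6% of detected genes. When its probesets were split into 2 sets, the tumour profiles of the sets correlated at 0.997.

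Camp and Ngp, the cathelin-related genes, were near the top of the intensity scale in most tumours and were low in few. Camp (5 probesets) was 11.98 in tumor_9508, had a median of 12.78 and reached 13.33 in tumor_9509 (mean 12.76 ± 0.39, SD, n = 15). Its range was 2.54-fold, and its second lowest value was 12.12 in tumor_9504. Ngp (5 probesets) was 10.83 in tumor_9508, had a median of 12.46 and reached 12.81 in tumor_9509, a 3.95-fold range. The next lowest Ngp value was 12.07 in tumor_9523, so a single tumour accounted for most of the range of this gene.

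Lcn2 and Cd177 were also lowest in tumor_9508 and highest in tumor_31, with a graded spread between. Lcn2 (8 probesets) was 11.06 in tumor_9508, had a median of 11.99 and reached 12.77 in tumor_31 (mean 11.98 ± 0.53, SD, n = 15). Tumor_9529 at 11.20 and tumor_29 at 11.33 were close to its lowest value, although their Ltf was not low (10.64 and 11.52). Cd177 (14 probesets) was 7.85 in tumor_9508, had a median of 8.88 and reached 9.83 in tumor_31, a 3.97-fold range.

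The metalloproteinases of the tertiary and secondary granules had the widest ranges with Ltf. Mmp8 (14 probesets) was 5.50 in tumor_9508, had a median of 8.97 and reached 10.78 in tumor_31 (mean 8.81 ± 1.53, SD, n = 15). The tumor_9508 value is the only member value in any tumour that lay below the detection limit of 6.41, so no fold is given for the 5.27 log2 units between the extremes. Mmp8 was also low in tumor_26 (6.71) and tumor_9495 (7.01), where Ltf was near the middle or lower part of its range (10.08 and 9.71). Mmp9 (17 probesets) was 6.49 in tumor_9504, had a median of 8.05 and reached 10.76 in tumor_31. Its lowest value was close to the detection limit, so no fold is given for the range of 4.27 log2 units. The next highest tumour was tumor_9500 at 9.87, and tumor_9508 had the second lowest value, 6.92. The probesets did not bear out the order of the 2 lowest: 7 of 17 were higher in tumor_9508 than in tumor_9504.

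Chil3 had another order of tumours. It was 10.13 in tumor_9529, 10.62 in tumor_9523 and 10.75 in tumor_29, had a median of 11.71 and reached 12.29 in tumor_9514 (mean 11.50 ± 0.68, SD, n = 15, 11 probesets). Tumor_9504 and tumor_9495, among the 3 lowest for Ltf, were among the highest for Chil3, at 12.14 and 12.26. The calprotectin genes were nearly level. S100a8 (4 probesets) lay between 12.63 in tumor_9523 and 13.03 in tumor_9509, with a median of 12.86 and an SD of 0.12, lower than that of all but 1.5% of detected genes. S100a9 (3 probesets) lay between 12.52 in tumor_9523 and 13.07 in tumor_31, with a median of 12.80 and an SD of 0.18. In tumor_9508, where Ltf, Camp, Ngp, Lcn2, Cd177 and Mmp8 all had their lowest value, S100a8 was 12.84 and S100a9 was 12.71, both inside the range of the other tumours.

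**Figure D1:**
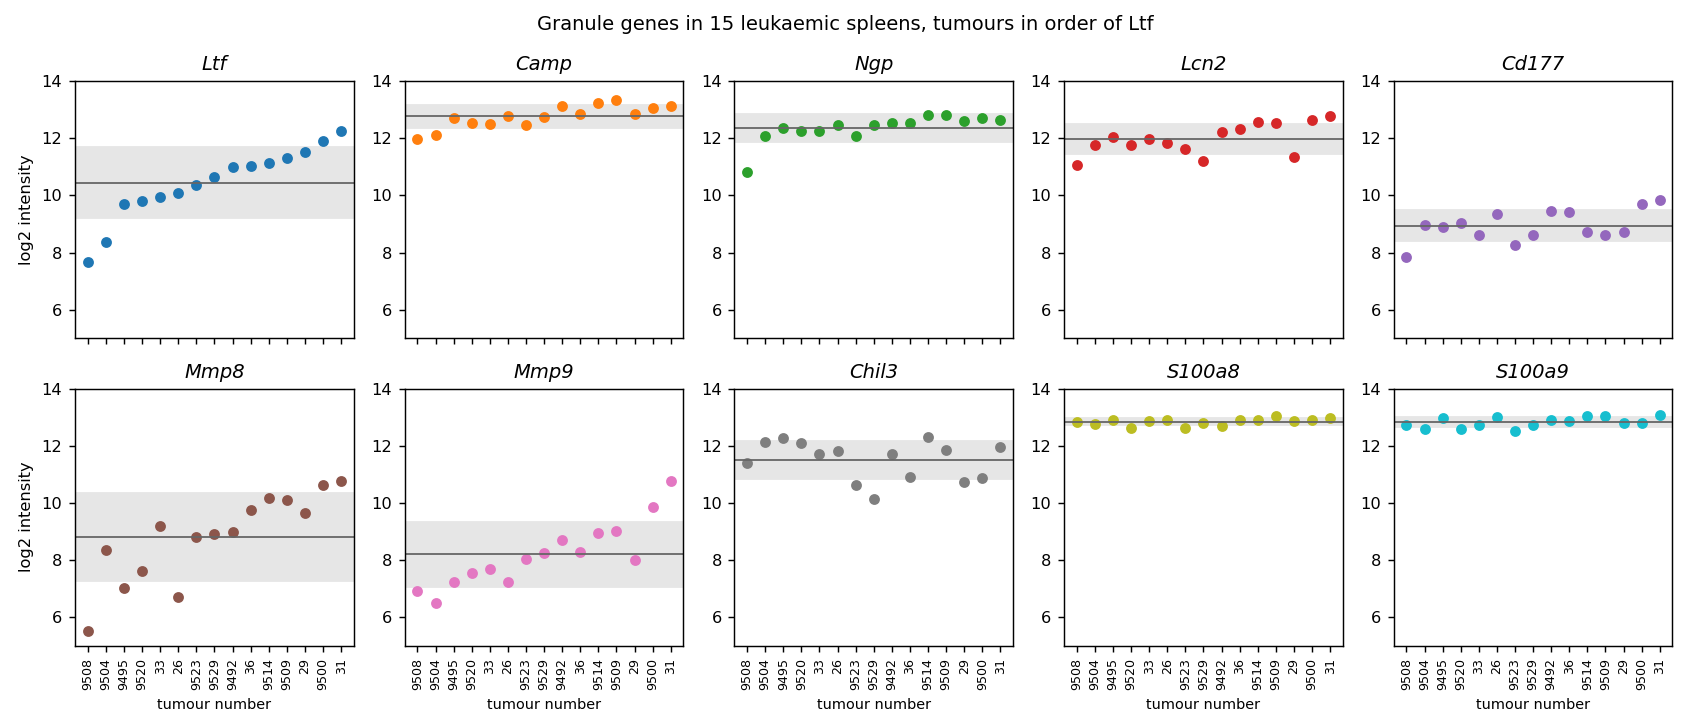
Levels of the 10 genes (log2 intensity, median over probesets, vertical axes) in the 15 tumours, ordered along the horizontal axes from lowest to highest Ltf. Each point is 1 tumour, the line is the mean and the band 1 SD to either side. Ltf, Mmp8 and Mmp9 span more than 4 log2 units, S100a8 and S100a9 less than 0.6, and Chil3 does not follow the order.

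Neighbouring tumours in the Ltf order were compared probeset by probeset, as a description of how firmly the order stands. Between tumor_9508 and tumor_9504, 17 of 21 Ltf probesets were higher in tumor_9504, and between tumor_9504 and tumor_9495 all 21 were higher in tumor_9495. The 21 probesets also moved one way between tumor_26 and tumor_9523, between tumor_9529 and tumor_9492, between tumor_29 and tumor_9500, and between tumor_9500 and tumor_31. Between tumor_33 and tumor_26, 11 of 21 probesets went with the order, as did 11 between tumor_9492 and tumor_36 and 12 each between tumor_9514 and tumor_9509 and between tumor_9509 and tumor_29. Those neighbours were not separated by their probesets.

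To describe the order of loss, a gene was counted as reduced in a tumour when it lay more than 1 log2 unit below its own highest tumour. Mmp9 was reduced in 13 tumours, Mmp8 and Ltf in 11 each, Cd177 in 7, Chil3 and Lcn2 in 5 each, Camp in 2 (tumor_9508 and tumor_9504) and Ngp in 1 (tumor_9508). S100a9 and S100a8 were reduced in 0 tumours, and at a limit of 0.5 S100a9 was reduced in 1 and S100a8 in 0. The count is tied to the highest tumour of each gene, and tumor_31, which had the highest value of 6 of the 10 genes, lost none by this measure. It also applies 1 limit to genes read at different levels. Mmp9, Mmp8, Ltf and Cd177 had no probeset with a mean above 12, against 4 of 5 for Camp, 3 of 5 for Ngp, 3 of 4 for S100a8 and 3 of 3 for S100a9. Lcn2 had 4 of 8 and Chil3 3 of 11. Spread was smaller at that level, as described below, and whether this set the order was not tested.

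The tumours did not follow a strict sequence at this limit. Tumor_9508 was reduced for 7 genes, namely Mmp9, Mmp8, Ltf, Cd177, Lcn2, Camp and Ngp, but not for Chil3. Chil3 was 0.90 below its highest level there and counted as reduced with centred arrays. Tumor_9523 and tumor_9529 were reduced for 6 genes each, including Chil3 and Lcn2 but neither Camp nor Ngp. Tumor_9504 was reduced for Mmp9, Mmp8, Ltf and Camp. Lcn2 and Cd177 were 0.996 and 0.87 below their highest there, so Lcn2 lay at the edge of the limit. Cd177 counted as reduced in that tumour with the mean over probesets. Tumor_9495, tumor_9492 and tumor_26 were reduced for Mmp9, Mmp8 and Ltf alone, tumor_9509 for Mmp9 and Cd177, and tumor_9500 for Chil3 alone. With centred or quantile normalized arrays tumor_9509 was reduced for Mmp9 alone. In 7 of 15 tumours the reduced genes were exactly the first ones in the order Mmp9, Mmp8, Ltf, Cd177, Chil3, Lcn2, Camp, Ngp, S100a9, S100a8. With a limit of 2 log2 units only Mmp9 (11 tumours), Ltf (6), Mmp8 (5) and Chil3 (1) were reduced anywhere, and 14 of 15 tumours were nested. A tumour with no reduced gene, or only the first gene of the order, is nested by definition. The order also came from these same counts. At the limit of 2 such tumours were tumor_31, tumor_9500, tumor_9509 and tumor_9514 (no gene) and tumor_9523, tumor_9492, tumor_36 and tumor_29 (Mmp9 alone). When shortfalls were counted from the median of a gene, the count was 11 of 15. Each of those 11 had no reduced gene or Mmp8 alone, then first in the order. At the limit of 1, without tumor_9509 and tumor_9514, the count was 7 of 13.

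**Figure D2:**
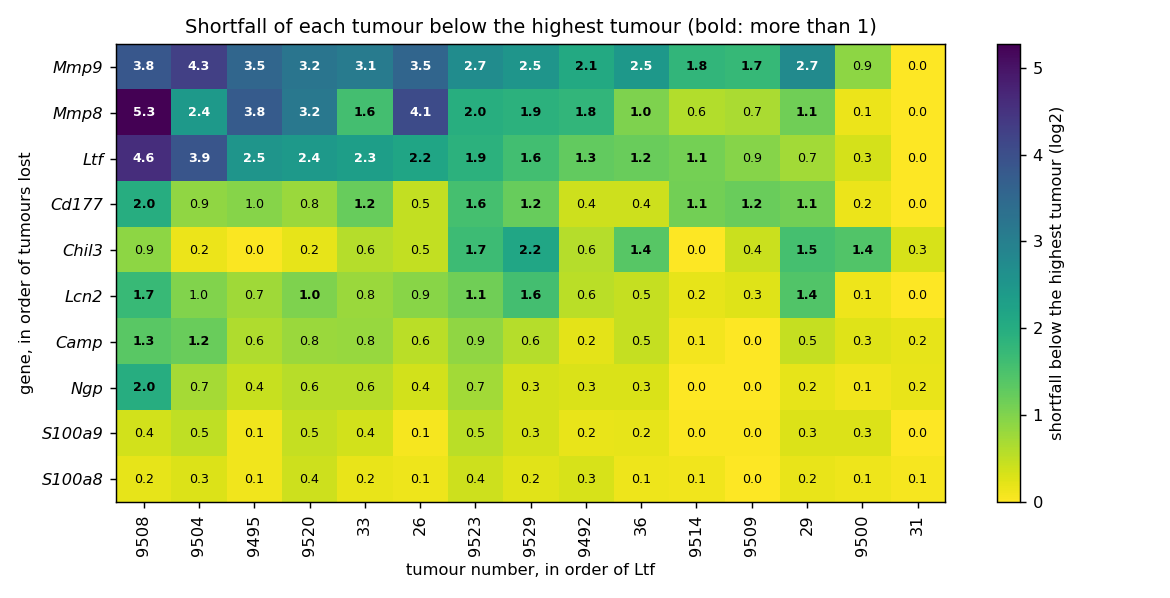
Shortfall of each gene below its own highest tumour (log2 units, colour and printed number) for 10 genes and 15 tumours, with genes in order of how many tumours were reduced. Values above 1 are in bold; they fill most of the Mmp9, Mmp8 and Ltf entries and none of the S100a8 and S100a9 entries.

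Whether the other members varied with lactoferrin was tested by fitting a line on Ltf to every detected gene with limma and adjusting over all 9776 genes. Camp, Ngp, Mmp8 and Mmp9 rose with Ltf, which is 4 of 9 members against a background of 0.286% of genes (28 of 9776) called higher, and no member was called lower against 0.0102% (1 gene, Mrpl54). At an unadjusted p under 0.05, limma had 6 members higher, against 5.38% of genes, and 0 lower, against 2.91%. Permutation tests adjusted over the same genes called 3 members by Pearson's r (Camp, Ngp and Mmp9), against 0.174% of genes called higher, and 2 by Spearman's rho (Ngp and Mmp9), against 0.0818%. Per log2 unit of Ltf, Mmp8 rose by 1.03 ± 0.16 (SE; limma adjusted p = 0.0062) and Mmp9 by 0.79 ± 0.11 (limma adjusted p = 0.0035). Camp and Ngp had shallower slopes, 0.28 ± 0.04 (limma adjusted p = 0.0062) and 0.32 ± 0.06 (limma adjusted p = 0.0164).

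The 15 tumours gave Pearson's r with Ltf of 0.89 for Camp (permutation p = 2e-05), 0.87 for Mmp9 (permutation p = 7e-05), 0.85 for Mmp8 (permutation p = 0.00018) and 0.84 for Ngp (permutation p = 3e-05). After adjustment over 9776 genes these permutation p-values were 0.0217, 0.0403, 0.0704 and 0.0267 for Camp, Mmp9, Mmp8 and Ngp. Spearman's rho was 0.85 for Camp (permutation p = 8e-05), 0.90 for Mmp9 (permutation p = 2e-05), 0.90 for Mmp8 (permutation p = 6e-05) and 0.87 for Ngp (permutation p = 4e-05), with adjusted permutation p-values of 0.0711, 0.0489, 0.0587 and 0.0489. By r, Camp ranked 6, Mmp9 9, Mmp8 17 and Ngp 18 among the 9776 genes. Without tumor_9508 and tumor_9504, the tumours farthest from the Ltf median, r was 0.74 for Camp, 0.74 for Ngp, 0.87 for Mmp8 and 0.90 for Mmp9. Among the 10 tumours with 4-digit numbers r was 0.91, 0.87, 0.87 and 0.94 for Camp, Ngp, Mmp8 and Mmp9, and the 5 tumours with 2-digit numbers are too few for a correlation. Without tumor_9509 and tumor_9514 it was 0.93, 0.83, 0.84 and 0.86 in the same order of genes.

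The remaining members did not pass. Lcn2 had a slope of 0.27 ± 0.08 and r = 0.63 (limma adjusted p = 0.281), and Cd177 had a slope of 0.25 ± 0.09 and r = 0.59 (limma adjusted p = 0.383). S100a9 had r = 0.53 (limma adjusted p = 0.685) and S100a8 r = 0.38 (limma adjusted p = 0.880). Chil3 had r = -0.22 (limma adjusted p = 0.899). The slopes of Lcn2 and Cd177 were close to that of Camp, with larger SEs. Without tumor_9508 the calls of Camp, Ngp and Mmp8 were lost, with limma adjusted p-values of 0.109, 0.293 and 0.132 and slopes of 0.28, 0.19 and 0.94. Without both tumor_9508 and tumor_9504, Mmp8 was called (slope 1.39, limma adjusted p = 0.0303), while Camp (slope 0.26, limma adjusted p = 0.520) and Ngp (slope 0.20, limma adjusted p = 0.724) were not. Mmp9 kept its call in every alternative that was run. In the 10 tumours with 4-digit numbers alone, Camp (slope 0.32, limma adjusted p = 0.0974), Ngp (slope 0.37, limma adjusted p = 0.152) and Mmp8 (slope 1.03, limma adjusted p = 0.0570) also missed the threshold, with slopes close to those in all 15 tumours.

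**Figure D3:**
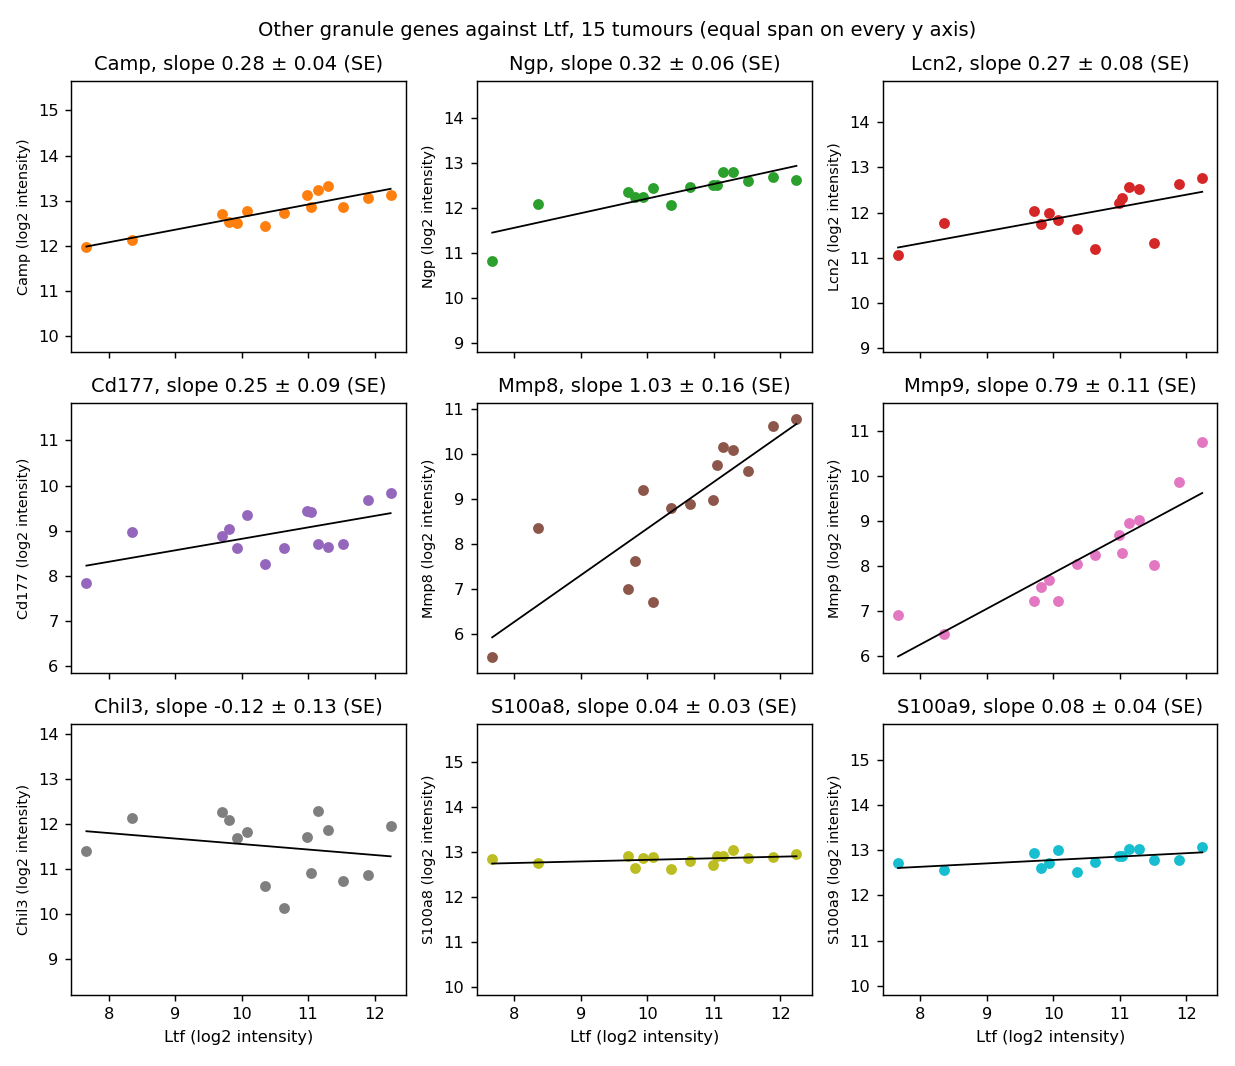
Level of each of the 9 other members (log2 intensity, vertical axes) against Ltf (log2 intensity, horizontal axes) in 15 tumours, with the fitted line. Mmp8 and Mmp9 rise steeply over the whole Ltf range, Camp and Ngp are high in all but the tumours at the left, and Chil3 scatters without a rise.

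All 45 pairs of members were computed, with each gene in turn as the regressor. The correlation was above 0 in 42 pairs, and the 36 pairs without Chil3 ran from 0.20 (Cd177 with S100a8) to 0.89 (Ltf with Camp). Limma called 7 pairs with at least one choice of regressor: Ltf with Camp, Ngp, Mmp8 and Mmp9, Camp with Ngp, Camp with Mmp9, and Mmp8 with Mmp9. Camp as regressor had 3 of 9 members called against 0.164% of genes, Ngp 2 against 0.0614%, Mmp8 2 against 0.153% and Mmp9 2 against 0.378%. Lcn2 had 0 members called against 0.46% of genes called higher and 0.123% lower, although 7 members were higher at an unadjusted limma p under 0.05, against 5.8% of genes. Cd177 had 0 against 0.276% higher, with 6 unadjusted against 8.87%. S100a8 and S100a9 had no gene called at all with limma. Members higher at an unadjusted p under 0.05 were 3 for S100a8, against 2.6% of genes, and 6 for S100a9, against 3.97%. The 35 pairs that included Lcn2, Cd177, Chil3, S100a8 or S100a9 gave 0 calls with limma and 0 with the permutation tests. With either regressor, 19 of them had an unadjusted limma p under 0.05. For a single regressor, 2.6% (S100a8) to 8.87% (Cd177) of genes were higher at that limit. Cd177 had r of 0.67 with Lcn2, 0.54 with Camp and 0.61 with Ngp. These were 0.86, 0.79 and 0.76 without tumor_9509 and tumor_9514, and 0.44, 0.24 and 0.25 without the 2 tumours farthest in Cd177.

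The cathelin-related pair was the closest in rank. Camp and Ngp had r = 0.86 and rho = 0.975 (both permutation p = 1e-05, the smallest these permutations can give), with a limma adjusted p of 0.0368 on Ngp, and r was 0.95 without the 2 tumours farthest in Ngp. The subunits of calprotectin, S100a8 and S100a9, had r = 0.80 (permutation p = 0.00027) and rho = 0.84 (permutation p = 0.00014). Their relation did not pass over all genes (limma adjusted p = 0.506 on S100a8), their levels spanned only 0.40 and 0.55 log2 units, and r was 0.68 without the 2 tumours farthest in S100a8, 0.80 in the 10 tumours with 4-digit numbers and 0.77 without tumor_9509 and tumor_9514.

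Camp, Ngp, Ltf and Mmp8 lie on mouse chromosome 9, and the genes between the first 3 were read for comparison. In the GRCm38.p6 order, 8 protein-coding genes lie between Camp and Ngp and 20 between Ngp and Ltf. Of these 28, 22 were measured and 9 detected, and their r with Ltf ran from -0.44 to 0.34 (Klhl18) with a median of 0.02. Limma called 0 of the 9, with 0 at an unadjusted p under 0.05, and the permutation tests also called 0. Over all genes limma called 0.286% higher and 0.0102% lower, and 5.38% were higher and 2.91% lower unadjusted. At these shares 0 calls does not set 9 genes apart from other genes. Without tumor_9509 and tumor_9514, r with Ltf ran from -0.41 (Elp6) to 0.74 (Cdc25a). Cdc25a had r = 0.32 in all tumours, and the next highest r without the pair was 0.40 (Klhl18). Lcn2 and Mmp9 lie on chromosome 2, Chil3, S100a8 and S100a9 on chromosome 3, and Cd177 on chromosome 7.

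The 10 genes with at least 3 probesets most like Ltf by r, members aside, included several that neutrophils are known for. Adpgk, an ADP-dependent glucokinase, rose by 0.59 ± 0.06 per log2 unit of Ltf (r = 0.94, limma adjusted p = 0.000161), and was 7.71 in tumor_9508 and 10.44 in tumor_31. Plbd1, a phospholipase B-like protein, rose by 0.82 ± 0.10 (r = 0.90, limma adjusted p = 0.000701). Gca, the calcium-binding protein grancalcin, rose by 0.54 ± 0.06 (r = 0.92, limma adjusted p = 0.000449). Itgb2l, a relative of the leukocyte integrin beta 2 chain, had r = 0.93, and Itgam, the CD11b integrin chain, had r = 0.87 (limma adjusted p = 0.00123 and 0.00484). Tmc8, Ltb4r1 (a leukotriene B4 receptor), AB124611, Slfn4 and Retnlg (a resistin-like protein of mouse neutrophils) completed the 10, with r between 0.86 and 0.92 and limma adjusted p between 0.00412 and 0.0391. Mrpl54, a mitochondrial ribosomal protein gene, was the gene that fell with Ltf, by 0.27 ± 0.05 per log2 unit (r = -0.86, limma adjusted p = 0.0164). Cgref1, Acy3, Mtres1 and Hnf4a were the next lowest, with r between -0.81 and -0.77 and limma adjusted p between 0.0518 and 0.240.

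Other genes of the same programme were read from lists. Of 16 detected genes among 22 other granule genes, 2 were called higher with Ltf by limma (Itgb2l and Itgam) and 0 lower, 3 were called by the permutation test of r and 1 by that of rho, and the median r was 0.57, against -0.01 over all detected genes. Pglyrp1, a peptidoglycan recognition protein of secondary granules, lay just outside the threshold with limma (slope 0.19 ± 0.04, adjusted p = 0.0507) and inside it with the permutation test of r (adjusted p = 0.0279), and Orm1 had the lowest r of that list, -0.23. Of 17 detected mature neutrophil genes, 5 were called higher by limma (Cxcr2, Retnlg, Fpr1, Trem1 and Slfn4) and 0 lower, with a median r of 0.67. Limma called 0.286% of all genes higher. At an unadjusted limma p under 0.05, 10 of the 16 other granule genes and 14 of the 17 mature neutrophil genes were higher. The share of all genes higher at that limit was 5.38%. The permutation tests of r and of rho each called 1 of them, Slfn4, and the adjusted permutation p of r was 0.151 for Cxcr2, 0.0566 for Retnlg, 0.0693 for Fpr1 and 0.0587 for Trem1. Cxcr2, the chemokine receptor of blood neutrophils, rose by 0.64 ± 0.13 per log2 unit of Ltf (limma adjusted p = 0.0487), whereas Il1r2 had the lowest r of the list, -0.22 (limma adjusted p = 0.901). Members of both lists were chosen with earlier results of these data known.

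Primary granule genes, regulators and cycling genes did not pass the same test. Of 9 detected primary granule genes limma called 0, with 1 lower at an unadjusted p under 0.05 (Ms4a3). Of 14 regulators it called 0, with 1 higher unadjusted (Cebpe), and of 7 cycling genes 0 (0 unadjusted). The permutation tests called 0 in each list. Over all genes limma called 0.286% higher and 0.0102% lower, and 5.38% were higher and 2.91% lower unadjusted. At these shares 0 calls does not set lists of this size apart from other genes. The median r of the primary granule, regulator and cycling lists was -0.10, 0.15 and 0.16. Cebpe was 10.02 ± 0.28 (SD, n = 15) with r = 0.58 to Ltf (limma p = 0.0240, adjusted p = 0.495, permutation p = 0.0235). Its rho was 0.56 (permutation p = 0.0323). Spi1, which codes for PU.1, had r = 0.21 (limma adjusted p = 0.917), Gfi1 had r = 0.03 (limma adjusted p = 0.994) and Cebpa had r = -0.11 (limma adjusted p = 0.976). Bach1 and Runx1, the regulators with the next highest and the lowest r, had r = 0.49 and r = -0.33 (limma adjusted p = 0.623 and 0.817). Among primary granule genes, Cd63 had r = 0.50 (limma adjusted p = 0.815), Mgst1 had r = 0.40 (limma adjusted p = 0.726) and Mpo, the myeloperoxidase, had r = 0.16 (limma adjusted p = 0.949). Ms4a3 had the lowest r of that list, -0.49, with a slope of -0.18 ± 0.08 (limma p = 0.0447, adjusted p = 0.587). Among cycling genes, Top2a had r = 0.38, Pcna had r = 0.28 and Birc5 had the lowest r, 0.00098 (limma adjusted p = 0.771, 0.896 and 0.9995). Several values depended on tumor_9509 and tumor_9514. Without that pair r was 0.47 for Mpo, 0.51 for Top2a, 0.66 for Klf5 (0.42 in all 15 tumours) and 0.51 for Stat3 (0.12 in all 15). It was 0.55 for Cebpe, 0.44 for Cd63, 0.33 for Mgst1, 0.28 for Pcna, 0.18 for Spi1 and -0.43 for Ms4a3. Markers of B, T, NK, erythroid, monocyte, red pulp macrophage, eosinophil, basophil and mast cells gave 0 calls on Ltf with limma or the permutation tests, with 1 erythroid gene and 1 macrophage gene at an unadjusted p under 0.05, and 0 of 4 dendritic cell markers were detected. The summed linear intensity of the detected eosinophil markers lay between 483 in tumor_36 and 8852 in tumor_33, that of the 6 monocyte markers between 1085 in tumor_9529 and 3392 in tumor_33, and that of the macrophage markers between 482 in tumor_9509 and 2553 in tumor_33.

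Chil3 was also set against all genes on its own, a choice made after its values were seen. Limma called 2 genes higher with Chil3 (0.0205% of 9776) and 8 lower (0.0818%), none of them members, with 0 members at an unadjusted p under 0.05 and 0 called by the permutation tests. The gene most like it was Chil4 (slope 1.26 ± 0.09, r = 0.97, limma adjusted p = 9.50e-07), a near-identical relative, so probes may share transcripts and these values are uncertain as separate measurements. Cmc2 also rose (slope 0.64 ± 0.11, limma adjusted p = 0.0415). Nedd4, a ubiquitin ligase, fell by 0.78 ± 0.11 per log2 unit of Chil3 (r = -0.89, limma adjusted p = 0.00612), and Pecam1, the adhesion molecule CD31, fell by 0.79 ± 0.12 (r = -0.88, limma adjusted p = 0.00790). Nt5e, the ecto-enzyme CD73, also fell (r = -0.89, limma adjusted p = 0.00415). Among the genes of the 5 lists and the cell type markers, limma and the permutation tests called 0 on Chil3. At an unadjusted p under 0.05, limma had 3 of 16 other granule genes, 1 of 14 regulators and 1 of 17 mature neutrophil genes higher with Chil3, against 3.25% of all genes. Lower at that limit were 2 of 9 primary granule genes, 2 of 7 cycling genes, 2 of 8 neutrophil markers, 1 regulator and 1 mature neutrophil gene, against 11.4% of all genes. These counts overlap. The 2 neutrophil markers were not members, and the other detected markers (Mpo, Ctsg and Csf3r) also stand in the primary granule or mature neutrophil lists.

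Member probesets at the bright end of the scale varied less, at the median, than the others. Brightness here is a place on the intensity scale, which depends on the probes, and does not rank the genes by abundance. Of the 102 member probesets, 20 had a mean above 12, and their median SD over tumours was 0.234, against 1.07 for the other 82, a ratio of 0.219. The classes hold different genes, and they overlap: 1 Camp probeset with a mean of 12.55 had an SD of 0.66, while the single dimmer Camp probeset had an SD of 0.24. Such levels are rare on these arrays: 1506 named probesets, or 0.723%, had a mean above 12, and 156 had one above 13, of which 6 belonged to members. The highest member value on any array was 13.67 and the highest value of any probeset was 14.24. The limit of 12 was chosen after the values were seen.

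Toward the bright end the spread shrank for named genes in general, so each member probeset was set against named probesets of its own level. The median SD of all named probesets was 0.376 between 9 and 10, 0.270 between 11 and 12, 0.179 between 12 and 13, and 0.133 between 13 and 14. All 21 Ltf and all 14 Mmp8 probesets exceeded the 95th percentile of SD at their level, as did 13 of 17 for Mmp9, 8 of 11 for Chil3, 6 of 8 for Lcn2, 7 of 14 for Cd177, 3 of 5 for Ngp and 2 of 5 for Camp. S100a8 had 0 of 4 and S100a9 0 of 3 above it. At the same time 2 of 4 S100a8 probesets and 2 of 3 S100a9 probesets lay above the median for their level. S100a8 probesets had means of 11.99 to 13.22 and SDs of 0.11 to 0.18, and S100a9 probesets had means of 12.64 to 13.03 and SDs of 0.12 to 0.22.

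Lcn2, Chil3, Ngp and Camp were each read by both bright and dimmer probesets, and for Chil3 and Lcn2 the bright ones spanned less over the same tumours. The 3 Chil3 probesets with means of 12.49 to 13.28 had SDs of 0.13 to 0.19, and the 8 others, with means of 9.12 to 11.66, had SDs of 0.60 to 1.27. Their tumour means ran from 12.58 in tumor_9529 to 13.07 in tumor_9514 for the bright probesets, against 9.36 in tumor_9529 to 11.89 in tumor_9495 for the others, ranges of 0.49 and 2.54. The bright set moved by 0.14 log2 units per unit of the other set. For Lcn2, the bright probesets spanned 0.96 and the others 2.23, with a slope of 0.49, and 1 bright Lcn2 probeset with a mean of 12.76 had an SD of 0.19. Over probesets the correlation of mean with SD was -0.93 for Chil3 (11 probesets), -0.92 for Lcn2 (8) and -0.64 for Ltf (21), given as a description because probesets of a gene share its RNA.

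**Figure D4:**
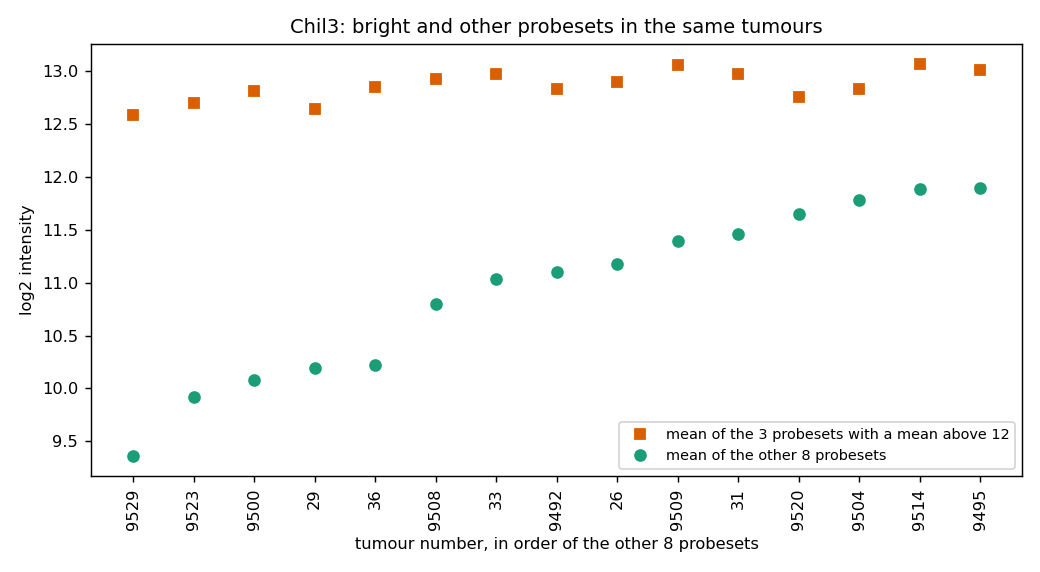
Mean log2 intensity (vertical axis) of the 3 Chil3 probesets with a mean above 12 (squares) and of the other 8 (circles) in each of 15 tumours, ordered along the horizontal axis by the other 8. The squares stay between 12.58 and 13.07, while the circles run from 9.36 to 11.89.

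The cathelin-related genes did not share that difference. The bright and the other Ngp probesets spanned 1.89 and 2.19 log2 units with a slope of 0.83, and the 4 bright Camp probesets spanned 1.38, more than the 0.86 of the single dimmer one. Within Ltf, which has no probeset with a mean above 12, the dimmest probeset (mean 6.62) had an SD of 1.85 and the brightest (mean 11.77) an SD of 0.99. S100a9 has no probeset with a mean of 12 or below, and S100a8 has 1, with a mean of 11.99. For both genes, therefore, the narrow range of 0.40 and 0.55 log2 units was read almost wholly where the scale was narrowest. Scanner signals were not analysed here, and whether saturation of the probes set these ranges was not tested.

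**Figure D5:**
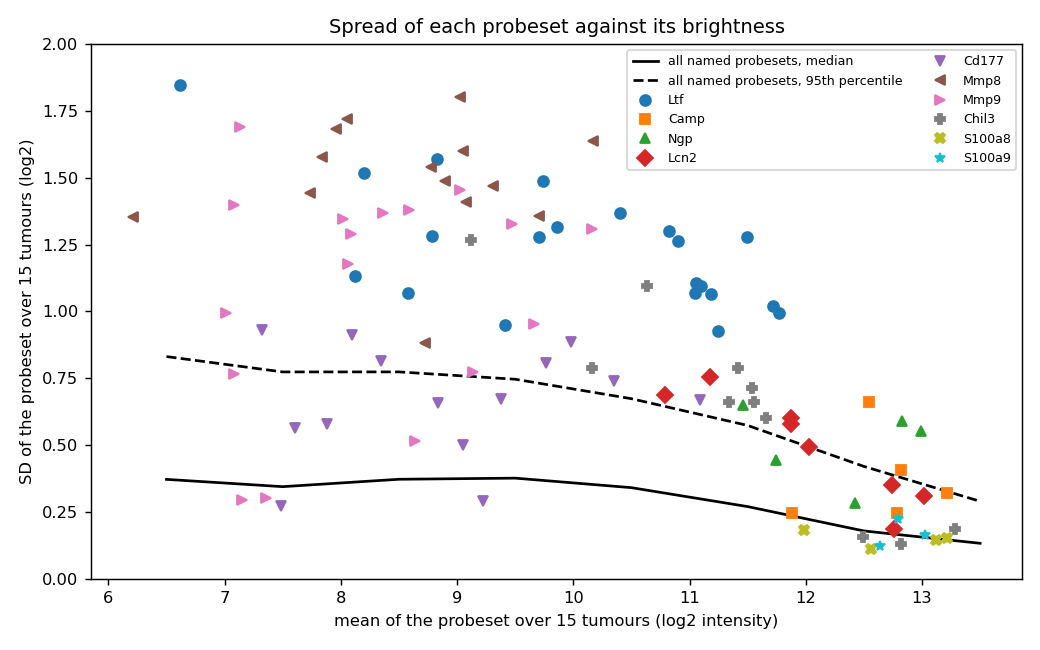
SD over 15 tumours (log2 units, vertical axis) against mean level (log2 intensity, horizontal axis) for the 102 member probesets, coloured by gene, with the median and 95th percentile of all named probesets by level. Ltf and Mmp8 probesets lie above the 95th percentile, and S100a8 and S100a9 probesets lie below it at the bright end.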

How the data were processed

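RNA from leukaemic spleens was extracted with Trizol, amplified from 20 ng and labelled with biotin, per the labels' protocols. The authors deposited 1 linear intensity per probeset and array, which were log2 transformed here. The submitters' processing notes name RMA and mm9 without a version. Scanner files were not analysed here. Of 229581 probesets, 208397 had 1 gene symbol, 3965 had several and 17219 had none. Of 16299 listed symbols, 14132 matched RefSeq's GRCm38.p6 genes, 2105 took a newer symbol from that source and 62 stayed as listed. Its coordinates were not used with the array data.

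Limma 3.58.1 (lmFit and eBayes, R 4.3.3) fitted each detected gene on each member in turn, with Benjamini-Hochberg adjustment at 0.05. Permutation tests were two-sided with 100000 resamples (Python 3.11.15, numpy 2.4.6). Both steps were tested on simulated data. The number of arrays limits the precision. Named were the members, the 10 genes with the highest and 5 with the lowest r to Ltf among those with at least 3 probesets, per list the 2 highest and the lowest r, and Cebpe, Gfi1, Cebpa and Spi1. Other named genes were chosen after their values were seen. The members and lists were chosen with earlier results of these data known. Alternatives were the mean over probesets, other filters, centring, quantile normalization, a term for tumour number class, other limits for loss, permutation tests and tumours left out.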

Additional observations from a re-analysis of the deposited data

How the results depend on the processing

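No paired analysis was possible because all tumours form 1 group. The count of 29 genes called on Ltf became 44 with the mean over probesets, 52 without tumor_9509 and tumor_9514, 8 in the 10 tumours with 4-digit numbers, 3 without the 2 tumours farthest from the Ltf median, 18 with the permutation test of Pearson's r and 8 with that of Spearman's rho. It ran from 6 (without tumor_9508) to 33 when single tumours were left out, with 15 without tumor_31 and 19 without tumor_9500. The 4 members called became 1 in the tumours with 4-digit numbers, 2 without the 2 farthest tumours and 2 with Spearman's rho, and ran from 1 (without tumor_9508) to 4 with single tumours left out. Nested tumours numbered 14 of 15 at a limit of 2 log2 units and 11 when counted from the median, against 7 at the limit of 1. These counts include tumours that are nested by definition, with no gene or only the first gene reduced. The ratio of bright to other probeset SDs ran from 0.182 to 0.232, against 0.219. The causes of these shifts were not tested. None of the 9 members' slopes on Ltf changed sign. Some weak correlations did: r of Cd177 with S100a8 was -0.03 in the tumours with 4-digit numbers, against 0.20 in all. Arrays give no counts, and levels near the detection limit, as for Mmp8 in tumor_9508 and Mmp9 in tumor_9504, carry no fold.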
